A study of Mus musculus with 8 samples.

Results

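Plasma proteins secreted by the yolk sac and the liver were followed through their messenger RNA in mouse embryos with and without Runx1. The genes were a list of 9, namely the carriers Alb, Afp, Ttr, Trf and Serpina6, the fibrinogen chains Fga, Fgb and Fgg, and the mineral-binding protein gene Ahsg. They were taken by name, and each was read from the probe set that the array annotation gives to that gene alone and that was brightest over all arrays. By this rule 8 of the 9 genes were measured, out of 18193 genes on the array. The only probe set for Trf, the iron carrier transferrin, is annotated to Trf and Srprb together, so Trf is given no value here. The 8 genes had 15 probe sets, and the 7 that were not chosen, 4 for Afp and 3 for Ttr, served as a check. The chosen probe sets were 1425260_at for Alb, 1416645_a_at for Afp, 1454608_x_at for Ttr, 1448506_at for Serpina6, 1424279_at for Fga, 1428079_at for Fgb, 1416025_at for Fgg and 1455093_a_at for Ahsg.

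Total RNA was measured on 8 Affymetrix arrays in 4 groups of 2: Runx1 knockout and wild type at embryonic day 12 (E12), and Runx1 knockout and wild type at embryonic day 8.5 (E8.5). The study's methods describe the material as embryo propers, the embryo without its extraembryonic parts. Markers of visceral endoderm were nevertheless bright on every E8.5 array, and trophoblast markers on E8.5 wild type replicate 1, as given below. The stages may therefore differ in the tissue they hold, which was not tested. Knockout and wild-type embryos came from mice kept on a BALB/c background, and the knockout is constitutive, so every tissue carries it. Definitive blood formation requires Runx1, a transcription factor, and the knockout embryos die at about the later of these stages. The replicates are described as biological ones, and the sources used here do not say whether an array held 1 embryo or several. The p-values therefore measure the spread between these arrays.

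Before the liver forms, the visceral endoderm, the epithelium that covers the yolk sac, makes much of the plasma protein of the embryo. Hepatoblasts of the liver bud take over this synthesis, and blood cells settle among them. Both epithelia read the same liver-type transcription factors, among them HNF1, HNF4 and the FOXA family. In RNA from whole embryos, fewer cells of a type and less RNA per cell cannot be told apart.

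The promoters are shown for Alb, Afp and the fibrinogen genes because these are 2 groups of neighbours whose members can be set side by side. Alb (chr5:90460870-90476602) and Afp (chr5:90490714-90508907) lie 14.1 kb apart with 0 protein-coding genes between them. Fgg (chr3:83007724-83015056), Fga (chr3:83026153-83033627) and Fgb (chr3:83042246-83049863) follow each other with gaps of 11.1 and 8.6 kb, again with 0 protein-coding genes between. Serpina6 lies on chromosome 12, Ahsg on 16 and Ttr on 18. Coordinates and sequences are those of RefSeq on GRCm38.p6. Each stretch holds 160 bases in the gene's own direction, 110 before the annotated start and 50 from it, with the HNF1 half-site GTTAAT (or its reverse complement ATTAAC) and the TATA box TATAAA in capitals.
Alb: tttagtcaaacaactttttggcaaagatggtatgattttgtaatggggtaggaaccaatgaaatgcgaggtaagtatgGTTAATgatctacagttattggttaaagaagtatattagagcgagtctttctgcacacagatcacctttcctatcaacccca
Afp: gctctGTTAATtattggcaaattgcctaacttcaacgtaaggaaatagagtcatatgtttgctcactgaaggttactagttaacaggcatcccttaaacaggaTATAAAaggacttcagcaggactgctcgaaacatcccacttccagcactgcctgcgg
Fga: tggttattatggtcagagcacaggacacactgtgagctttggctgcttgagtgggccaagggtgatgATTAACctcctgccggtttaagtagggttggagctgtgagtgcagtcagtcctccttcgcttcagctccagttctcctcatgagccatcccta
Fgb: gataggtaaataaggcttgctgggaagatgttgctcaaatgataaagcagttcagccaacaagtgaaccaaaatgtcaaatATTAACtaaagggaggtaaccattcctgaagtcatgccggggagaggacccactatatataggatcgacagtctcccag
Fgg: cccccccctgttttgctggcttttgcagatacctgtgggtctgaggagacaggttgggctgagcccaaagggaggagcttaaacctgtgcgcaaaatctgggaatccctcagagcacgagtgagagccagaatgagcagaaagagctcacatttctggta
The stretches are chr5:90460760-90460919 on the plus strand for Alb, chr5:90490604-90490763 on the plus strand for Afp, chr3:83026043-83026202 on the plus strand for Fga, chr3:83049814-83049973 on the minus strand for Fgb and chr3:83007614-83007773 on the plus strand for Fgg.

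The search covered the whole 300-base promoters, 250 bases before the start and 50 from it, on both strands, for the 6 genes matched in the RefSeq table (Alb, Afp, Fga, Fgb, Fgg and Ahsg). The HNF1 half-site was present in 4 of these 6, against 7.1% of 32851 mouse promoters. Its first base lay 32 bases before the start in Alb, 105 in Afp, 43 in Fga and 29 in Fgb. The TATA box letters were found in Afp, 7 bases before the annotated start, and in 13.6% of all promoters. The FOXA core TGTTTAC was in none of the 6 and in 3.65% of all promoters. No match overlapped another, and a match of letters is a description of the sequence only.

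Levels are log2 of the deposited intensity throughout, so 1 unit is a doubling, and each probe set is compared with itself across arrays. Median log2 intensity was 5.16 to 5.20 at E12 and 4.96 to 5.01 at E8.5. The bright end differed more, with a 99th percentile of 10.5 to 11.1 at E12 against 12.2 to 12.3 at E8.5, so the scaling between stages is not settled. Replicates correlated across probe sets at r = 0.992 in knockout and 0.965 in wild type at E12, and at r = 0.983 in knockout and 0.927 in wild type at E8.5. The 6 Runx1 probe sets do not check the labels, since their position with respect to the targeted exons is not known here. The brightest of them, 1452531_at, read 7.10 and 6.86 in knockout against 7.06 and 6.39 in wild type at E12, and 6.41 and 6.86 in knockout against 6.16 and 5.95 in wild type at E8.5. The largest difference at E8.5 was that of 1422864_at, with 6.09 and 6.325 in knockout against 5.26 and 5.085 in wild type (1.03, limma adjusted p = 0.843). At E12 it differed by -0.22. None of the 6 was called between the genotypes at either stage. E8.5 wild type replicate 1 stood apart in trophoblast markers, as described with the E8.5 comparison.

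The question of stage was how the plasma protein genes differed between E12 and E8.5, asked in each genotype with its own arrays. Alb and Serpina6 were far higher and Ttr was far lower at E12, in knockout and in wild type alike. A probe set was called at a limma Benjamini-Hochberg adjusted p below 0.05 over the 45037 probe sets tested. In knockout embryos 7 of the 8 genes were called, 2 higher and 5 lower, against 25.6% of all probe sets (11.6% higher and 14.1% lower). In wild-type embryos 5 of the 8 were called, 3 higher and 2 lower, against 27.8% of all probe sets (12.1% higher and 15.7% lower). On the deposited scale the E12 arrays of all 8 genes lay wholly to one side of the E8.5 arrays in both genotypes. Of all probe sets 25.3% overlapped in knockout and 38.6% in wild type. By percentile within the array, Afp and the 3 fibrinogen genes overlapped between the stages in wild type, as given below. The median difference over the 8 genes was -1.68 in knockout and -0.92 in wild type, beside 0.03 and -0.01 over all probe sets; with quantile normalization it was -0.53 in knockout and turned to 0.09 in wild type.

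**Figure D1:**
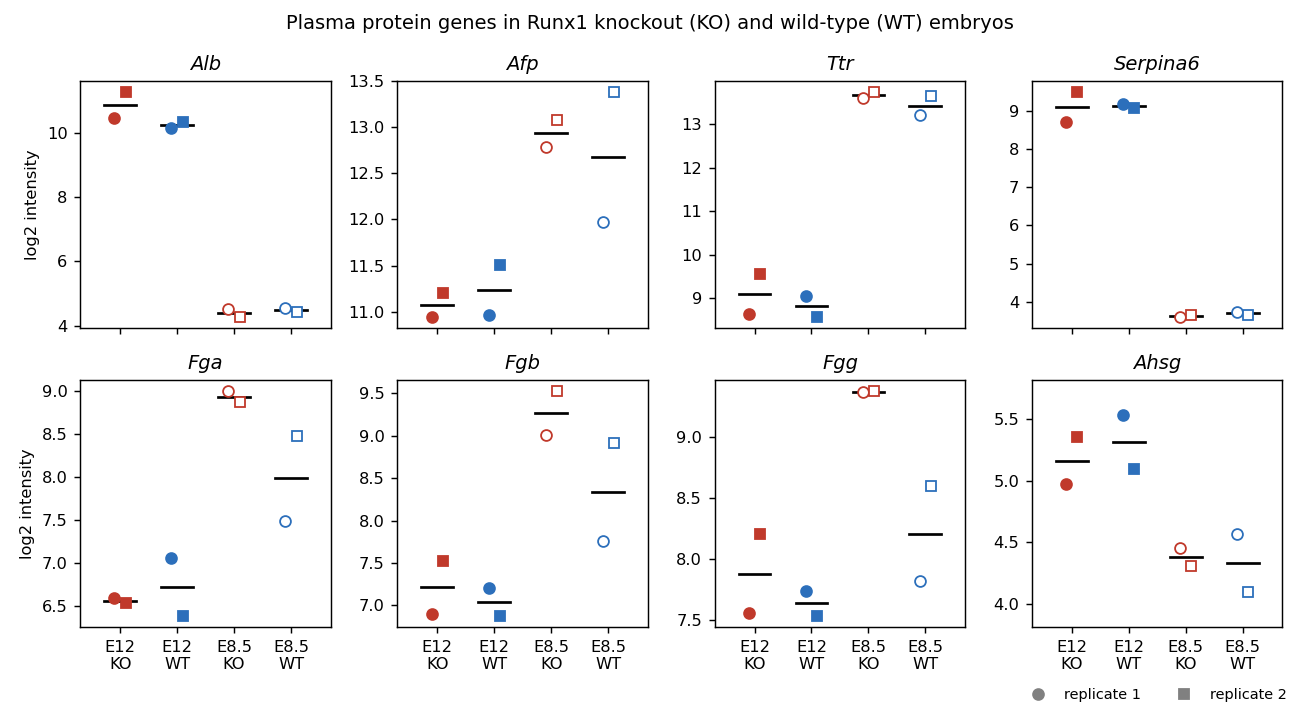
Log2 intensity of the 8 measured plasma protein genes on each of the 8 arrays. Circles are replicate 1 and squares replicate 2, red is Runx1 knockout (KO) and blue wild type (WT), filled symbols are E12 and open symbols E8.5, and bars are group means; each panel has its own vertical axis. Alb and Serpina6 sit at 8.72 to 11.26 at E12 and at 3.598 to 4.55 at E8.5, while Ttr sits at 8.57 to 9.56 at E12 and at 13.20 to 13.73 at E8.5.

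Among the carriers, Alb, the gene of serum albumin, the most abundant protein of adult plasma, had the steepest increase. It read 10.46 and 11.26 in the knockout arrays at E12, against 4.52 and 4.27 at E8.5. In wild type it read 10.13 and 10.33 at E12, against 4.55 and 4.42 at E8.5. On all E8.5 arrays Alb lay below the median probe set of its array, between the percentiles 29.9 and 39.1, and on all E12 arrays between 97.8 and 99.4. The difference was 6.46 in knockout (SE 0.28, 88.2-fold, limma adjusted p = 0.000236) and 5.75 in wild type (SE 0.28, 53.7-fold, limma adjusted p = 0.000391). Group means were 10.86 ± 0.56 in knockout and 10.23 ± 0.14 in wild type at E12, and 4.40 ± 0.18 in knockout and 4.48 ± 0.09 in wild type at E8.5 (SD, n = 2 each), so E12 knockout stood highest, and the 2 E8.5 groups overlapped.

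Serpina6, which encodes the corticosteroid-binding globulin, differed in the same direction as Alb. In knockout it read 8.72 and 9.50 at E12, against 3.598 and 3.64 at E8.5. In wild type it read 9.19 and 9.08 at E12, against 3.73 and 3.66 at E8.5. The knockout and wild-type arrays at E12 interleaved, and the stage difference was 5.49 in knockout (45.0-fold, limma adjusted p = 0.000274) and 5.44 in wild type (43.3-fold, limma adjusted p = 0.000391), each with SE 0.26. In its own array Serpina6 was at the percentiles 93.3 to 96.1 at E12 and 10.4 to 13.8 at E8.5.

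Ttr, transthyretin, which carries thyroxine and the retinol-binding protein, ran the other way. In knockout it read 8.63 and 9.56 at E12, against 13.60 and 13.73 at E8.5. In wild type it read 9.05 and 8.57 at E12, against 13.20 and 13.64 at E8.5, where it was among the brightest probe sets of each array (percentiles 99.6 to 99.9 over the 4 E8.5 arrays). It was 23.7-fold lower at E12 in knockout (-4.57, SE 0.34, limma adjusted p = 0.00104) and 24.4-fold lower in wild type (-4.61, SE 0.34, limma adjusted p = 0.00105). The other Ttr probe sets, 1459737_s_at, 1455913_x_at and 1451580_a_at, were called lower in both genotypes as well, with differences between -4.28 and -5.15. Group means were 9.10 ± 0.65 in knockout and 8.81 ± 0.34 in wild type at E12, and 13.67 ± 0.09 in knockout and 13.42 ± 0.31 in wild type at E8.5 (SD, n = 2 each), and the genotypes overlapped within each stage.

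Afp, alpha-fetoprotein, the albumin relative that prevails in fetal plasma, was bright at both stages. In knockout it read 10.94 and 11.20 at E12, against 12.79 and 13.08 at E8.5. In wild type it read 10.96 and 11.50 at E12, against 11.97 and 13.38 at E8.5, the widest replicate gap of any of the 8 genes. The difference was called in knockout (-1.86, SE 0.45, limma adjusted p = 0.0278) and not in wild type (-1.44, SE 0.45, limma adjusted p = 0.0572). After quantile normalization of all 8 arrays the difference was -0.32 in knockout (limma adjusted p = 0.636) and turned to 0.075 in wild type (limma adjusted p = 0.918). The place of Afp within its array was 99.2 to 99.4 at E12 and 98.7 to 99.7 at E8.5, so no stage had the higher percentiles throughout. The 4 other Afp probe sets were not called in either genotype. Of these 1416646_at, 1436879_x_at and 1436881_x_at were lower at E12, by at most 1.74, and 1436880_at was higher, by 0.71 in knockout and 0.90 in wild type. Over the 8 arrays 1436880_at was dim, at the percentiles 18.3 to 51.1, so its direction says little about Afp.

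The fibrinogen genes encode the 3 chains of the protein that thrombin turns into the mesh of a clot, and all 3 were called lower at E12 in knockout and Fga alone in wild type. Fga, the alpha chain, read 6.60 and 6.53 at E12 against 8.999 and 8.87 at E8.5 in knockout. In wild type Fga read 7.06 and 6.39 at E12 against 7.485 and 8.48 at E8.5. It was called in both genotypes, with a difference of -2.37 in knockout (SE 0.36, 5.18-fold, limma adjusted p = 0.00647) and -1.26 in wild type (SE 0.36, 2.40-fold, limma adjusted p = 0.0434).

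Fgb, the beta chain, read 6.90 and 7.52 at E12 against 9.01 and 9.53 at E8.5 in knockout, and 7.20 and 6.88 at E12 against 7.76 and 8.91 at E8.5 in wild type. Its difference was called in knockout (-2.06, SE 0.42, limma adjusted p = 0.0162) and not in wild type (-1.30, SE 0.42, limma adjusted p = 0.0640). Fgg, the gamma chain, read 7.55 and 8.20 at E12 against 9.37 and 9.38 at E8.5 in knockout, and 7.74 and 7.53 at E12 against 7.82 and 8.60 at E8.5 in wild type. It was called in knockout (-1.49, SE 0.32, limma adjusted p = 0.0181) and not in wild type (-0.57, SE 0.32, limma adjusted p = 0.230), where the nearest E12 and E8.5 arrays were 7.74 and 7.82. All 3 genes had their highest group mean in E8.5 knockout (8.94 ± 0.09 for Fga, 9.27 ± 0.36 for Fgb and 9.37 ± 0.0059 for Fgg) and the next in E8.5 wild type (7.98 ± 0.71, 8.34 ± 0.82 and 8.21 ± 0.55; SD, n = 2 each). The E12 groups of each gene overlapped. By percentile within the array, Fga in wild type lay at 80.6 and 71.6 at E12 against 79.5 and 86.8 at E8.5. Fgb in wild type lay at 82.2 and 77.6 at E12 against 81.7 and 89.6 at E8.5. Fgg in wild type lay at 87.4 and 84.0 at E12 against 82.1 and 87.5 at E8.5, so the stages overlapped for all 3. In knockout the percentiles of each were lower on both E12 arrays than on either E8.5 array.

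Ahsg, fetuin-A, which binds calcium phosphate in plasma and keeps it from precipitating, was dim on every array. In knockout it read 4.97 and 5.35 at E12, against 4.46 and 4.31 at E8.5. In wild type it read 5.53 and 5.10 at E12, against 4.57 and 4.10 at E8.5. The difference was called in wild type (0.98, SE 0.25, limma adjusted p = 0.0304) and not in knockout (0.78, SE 0.25, limma adjusted p = 0.0658). The percentiles of Ahsg within its arrays were 44.2 to 57.4 at E12 and 24.0 to 39.8 at E8.5, near or below the median probe set. Its groups overlapped within each stage.

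**Figure D2:**
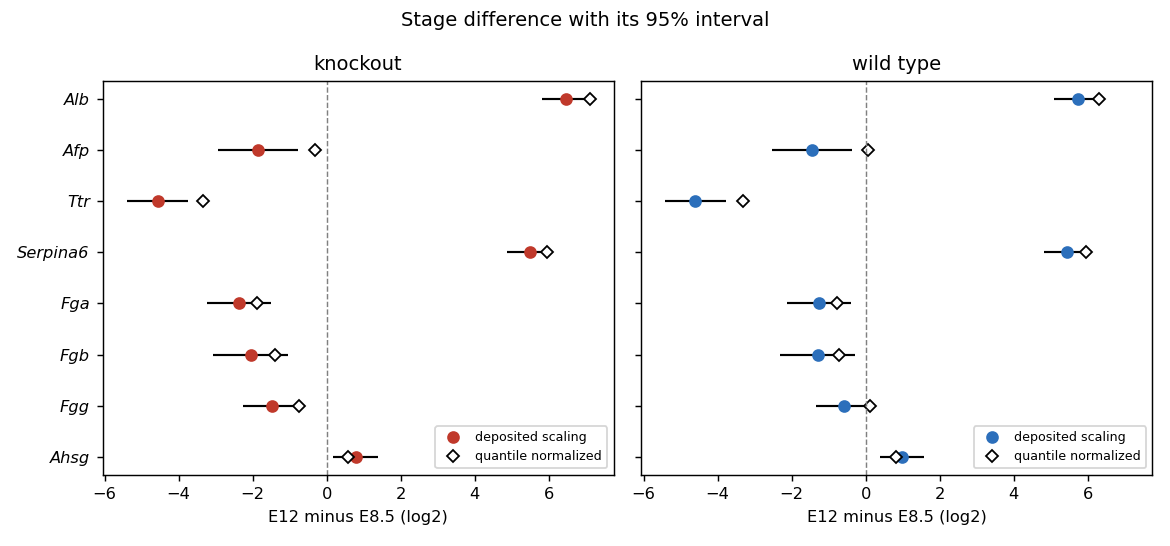
E12 minus E8.5 log2 difference of each gene in knockout (left) and wild-type embryos (right). Filled circles are the deposited scaling with the 95% interval of the limma fit as a line, open diamonds are quantile-normalized values, and the dashed line is 0. Alb and Serpina6 stay at 5.44 or more and Ttr at -3.32 or less under both scalings, and Afp and Fgg in wild type cross 0 to 0.075 and 0.11.

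Scaling bore on the size of these stage differences. With quantile normalization 4 genes were called in knockout (Alb, Ttr, Serpina6 and Fga) and 3 in wild type (Alb, Ttr and Serpina6). The calls over all 45037 probe sets fell as well, to 7935 from 11539 in knockout and to 9167 from 12525 in wild type. The difference of Ttr was then -3.34 in knockout and -3.32 in wild type, and that of Alb 7.11 in knockout and 6.31 in wild type. Fgg in wild type turned to 0.11. Over all probe sets, the share of calls that were lower at E12 moved to 46.2% in wild type with quantile normalization, against 56.4% with the deposited scaling, and to 47.5% in knockout, against 54.9%. With 1 of the 8 arrays left out, the stage difference of Alb ran from 6.07 to 6.86 in knockout and from 5.65 to 5.85 in wild type. That of Serpina6 ran from 5.10 to 5.89 in knockout and from 5.38 to 5.49 in wild type. That of Ttr ran from -5.03 to -4.11 in knockout and from -4.85 to -4.37 in wild type. None of the 8 genes changed direction. Which genes beside Alb, Serpina6 and Ttr were called depended on the array left out, as did the number called over all probe sets.

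Other genes of secreted plasma proteins, 45 measured of a list of 56, were divided between the stages, with more members higher at E12. At E12, 15 were called higher and 4 lower in knockout, against 11.6% and 14.1% of all probe sets. In wild type 15 were called higher and 2 lower, against 12.1% and 15.7% of all probe sets. The median difference was 0.41 in knockout and 0.47 in wild type. Rbp4, the retinol-binding protein that transthyretin carries, was lower by -5.02 in knockout (limma adjusted p = 0.00112) and -4.44 in wild type (limma adjusted p = 0.00154). It read 8.05 and 8.68 in knockout and 8.496 and 8.21 in wild type at E12, against 13.07 and 13.71 in knockout and 12.32 and 13.26 in wild type at E8.5. Itih2, a heavy chain of the inter-alpha-trypsin inhibitor, was higher by 3.01 in knockout and 2.95 in wild type. Vtn, vitronectin, was higher by 1.86 in knockout and 2.45 in wild type, Hrg, the histidine-rich glycoprotein, by 1.80 in knockout, and Azgp1 by 1.43 in wild type. Each of these was called.

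The markers of visceral endoderm moved between the stages as Ttr did. Of 24 listed genes 23 were measured, and at E12 all 23 were lower in each genotype, 21 called in knockout and 20 in wild type. Over all probe sets 14.1% were called lower in knockout and 15.7% in wild type. The median of the list was -4.03 in knockout and -3.61 in wild type. Cubn, the endocytic receptor cubilin, read 4.26 and 3.93 in knockout and 4.11 and 3.87 in wild type at E12, against 13.29 and 13.35 in knockout and 13.07 and 12.99 in wild type at E8.5. Amn, its membrane partner amnionless, was lower by -7.08 in knockout and -6.75 in wild type, Dab2, an endocytic adaptor, by -4.14 in knockout and -3.39 in wild type, Slc2a2, a glucose transporter, by -6.51 in knockout, and Sox17, an endoderm transcription factor, by -3.61 in wild type. The summed intensity of the list was 1808 to 2099 in knockout and 1742 to 2373 in wild type at E12, against 48670 to 68570 in knockout and 37420 to 60350 in wild type at E8.5. At E8.5 Cubn was at the percentiles 99.5 to 99.7 of its arrays, although the study's methods describe the material as embryo proper. The part of visceral endoderm in the stage differences of Ttr, Afp and the fibrinogens was not tested.

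The markers of hepatoblasts and hepatocytes, 23 measured of 25, were mixed. At E12, 4 were called higher and 6 lower in knockout, against 11.6% and 14.1% of all probe sets. In wild type 6 were called higher and 5 lower, against 12.1% and 15.7% of all probe sets. The medians were 0.18 in knockout and 0.04 in wild type. Onecut1, a transcription factor of the liver bud, was higher by 1.07 in knockout and 1.10 in wild type. The keratin genes Krt18 and Krt8 were lower by -4.84 and -4.75 in knockout and by -5.56 and -5.21 in wild type, and both are keratins of simple epithelia in general. Tdo2, tryptophan dioxygenase, was lower by -3.78 in knockout and -2.15 in wild type. Cps1, a urea cycle enzyme of hepatocytes, read 5.16 and 5.33 in knockout and 5.03 and 4.69 in wild type at E12, at the percentiles 38.2 to 53.1 of its arrays. Cebpa of the same list lay at the percentiles 37.2 to 55.4 at E12. Dlk1, also listed, was brighter, at the percentiles 78.3 to 89.3 at E12. Dlk1 read 6.90 and 7.66 in knockout and 7.98 and 7.28 in wild type at E12. At E8.5 it read 6.80 and 7.24 in knockout and 5.71 and 6.51 in wild type. The summed intensity of the list was 1345 to 1518 in knockout and 1290 to 1818 in wild type at E12, against 13270 to 13280 in knockout and 15770 to 23610 in wild type at E8.5, where Krt8 and Krt18 were bright.

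Of the endoderm and liver transcription factors, 21 measured of 23, 4 were called higher and 7 lower at E12 in knockout. In wild type 6 were called higher and 6 lower. Calls over all probe sets were 25.6% in knockout (11.6% higher, 14.1% lower) and 27.8% in wild type (12.1% higher, 15.7% lower). Sox17 was lower by -3.95 in knockout and Foxa2, a FOXA factor of gut and liver, by -2.21 in knockout. Nr0b2, a nuclear receptor that represses bile acid synthesis in liver, was higher by 1.41 in knockout and 1.32 in wild type, and Prox1, which hepatoblasts need to migrate out of the liver bud, by 1.53 in wild type. Hnf4a, a nuclear receptor that drives many plasma protein genes, read 7.15 and 7.38 in knockout and 7.96 and 6.70 in wild type at E12. At E8.5 it read 8.89 and 9.99 in knockout and 8.71 and 10.05 in wild type. Its percentiles in wild type overlapped between the stages, with 89.1 and 75.6 at E12 against 88 and 94.6 at E8.5. In knockout they were 81.2 and 83.2 at E12 against 89.5 and 94.5 at E8.5.

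Of markers of other cells, the 16 measured trophoblast genes had 2 called higher and 1 lower at E12 in knockout. In wild type 2 were called higher and 3 lower. The 10 decidua genes had 2 higher and 3 lower in knockout, and 4 higher and 2 lower in wild type. The 16 measured red cell genes had 6 higher and 1 lower in knockout, and 6 higher and 0 lower in wild type. The 14 macrophage genes had 0 higher and 1 lower in knockout, and 7 higher and 0 lower in wild type. Calls over all probe sets were 25.6% in knockout (11.6% higher, 14.1% lower) and 27.8% in wild type (12.1% higher, 15.7% lower). The part of these cells in the stage differences of the plasma protein genes was not tested.

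The knockout comparison at E12 asked whether loss of Runx1 went with other plasma protein RNA in the embryo that has a liver. At E12 none of the 8 genes was called, 0 passed an absolute t of 3, and the median difference was 0.07, beside 0.01 over all probe sets. Of all probe sets 0.0133% were called, 6 in number and all lower, and 0.655% passed an absolute t of 3, the threshold of the study's methods. Over all probe sets 713 (1.58%) had an unadjusted limma p below 0.05, and of the 8 genes the lowest unadjusted p was 0.0584, for Alb. Alb read 10.46 and 11.26 in knockout against 10.13 and 10.33 in wild type and was the only gene whose arrays did not overlap, a separation to the higher side that 12.6% of all probe sets had. Its difference was 0.63 (SE 0.28, 95% interval -0.03 to 1.29, limma adjusted p = 1.00), and it was 0.33 between the arrays numbered 1 and 0.93 between those numbered 2. E12 knockout replicate 2 was the highest of the E12 arrays in 5 of 8 genes (Alb, Ttr, Serpina6, Fgb and Fgg); without it the difference of Alb was 0.23. The 95% intervals of the other 7 genes all held 0, from the widest, -1.25 to 0.93 for Afp, to the narrowest, -0.76 to 0.45 for Ahsg.

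Of the macrophage markers, 2 of 14 were called at this stage, both lower in E12 knockout, against 0.0133% of all probe sets. A negative difference was present in 13 of the 14, while 48.8% of all genes were higher in E12 knockout. Ctss, a lysosomal protease, read 4.50 and 4.59 in knockout against 7.87 and 7.80 in wild type (-3.29, limma adjusted p = 0.00537), and Lyz1, a lysozyme, differed by -3.41 (limma adjusted p = 0.0335). The other lists had 0 members called at E12 between the genotypes: the median was -0.06 for other plasma proteins, -0.00085 for visceral endoderm, -0.0047 for hepatoblast markers, -0.15 for the transcription factors, -0.03 for trophoblast, -0.22 for decidua and -0.46 for red cell markers. Of the red cell markers 12 of 16 were lower in E12 knockout, where 48.8% of all genes were higher.

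The knockout comparison at E8.5 asked the same before the liver is formed. The 3 fibrinogen genes were higher on both knockout arrays than on either wild-type array, by 1.93-fold for Fga, 1.91-fold for Fgb and 2.24-fold for Fgg, and none of the 8 genes was called. Of all probe sets 0% were called at this stage, the lowest limma adjusted p being 0.843. An unadjusted limma p below 0.05 was present in 2132 of them (4.73%), Fgg and Fga among them. Fgg was the only gene of the 8 past an absolute t of 3 (t = 3.66), against 2.06% of all probe sets, 0.881% of them higher. The median difference over the 8 genes was 0.25, beside -0.02 over all probe sets.

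Fgg read 9.37 and 9.38 in E8.5 knockout against 7.82 and 8.60 in E8.5 wild type, a difference of 1.16 (SE 0.32, 95% interval 0.40 to 1.93, limma adjusted p = 0.990). Fga read 8.999 and 8.87 in knockout against 7.485 and 8.48 in wild type, a difference of 0.95 (SE 0.36, limma adjusted p = 1.00). Fgb read 9.01 and 9.53 in knockout against 7.76 and 8.91 in wild type, a difference of 0.93 (SE 0.42, limma adjusted p = 1.00). Such separation to the higher side was present in 13.2% of all probe sets. Serpina6 was separated to the lower side, as were 16.1% of all probe sets, at the dim levels of 3.598 and 3.64 in knockout against 3.73 and 3.66 in wild type. Alb, Afp, Ttr and Ahsg overlapped, with differences of -0.09, 0.26, 0.24 and 0.05. Of the other Ttr probe sets, 1459737_s_at read 13.46 and 13.49 in knockout against 13.02 and 13.11 in wild type, and 1451580_a_at 12.42 and 12.51 in knockout against 11.64 and 12.10 in wild type, so both were separated to the higher side and neither was called. The third, 1455913_x_at, overlapped.

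**Figure D3:**
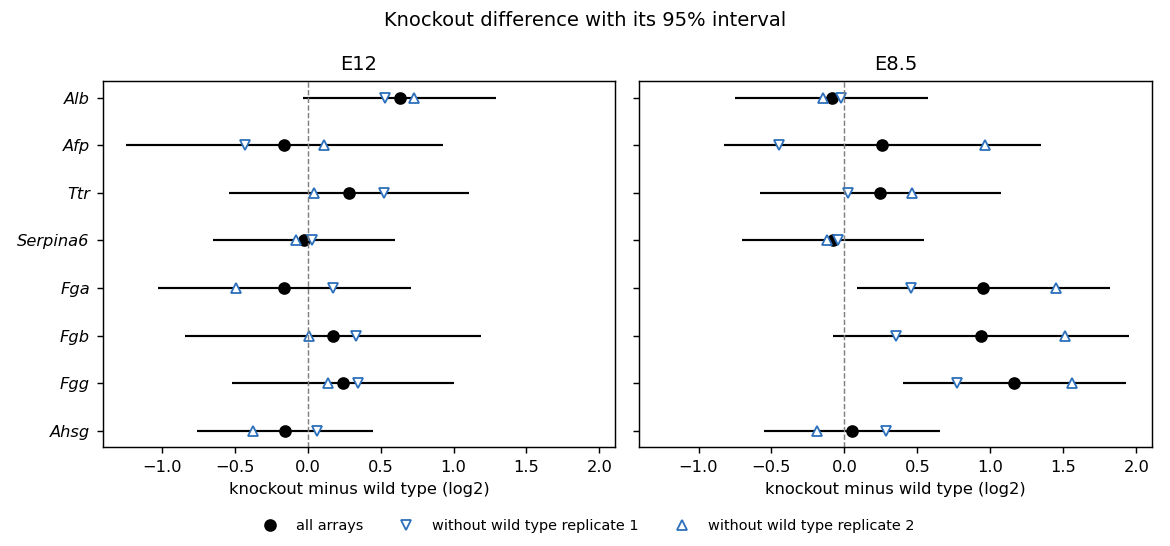
Knockout minus wild-type log2 difference of each gene at E12 (left) and E8.5 (right). Filled circles are the fit to all arrays with the 95% interval as a line, downward and upward triangles are the same difference without wild type replicate 1 and without wild type replicate 2 of that stage, and the dashed line is 0. At E8.5 the 3 fibrinogen genes lie at 0.93 to 1.16 and shift to 0.36 to 0.77 without wild type replicate 1 and to 1.45 to 1.56 without wild type replicate 2.

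The size of the fibrinogen difference moved with the wild-type array left out. E8.5 wild type replicate 1 was the lowest of the 4 E8.5 arrays for Afp, Ttr, Fga, Fgb and Fgg and the highest for Alb, Serpina6 and Ahsg. Without it the differences were 0.45 for Fga, 0.36 for Fgb and 0.77 for Fgg, with 0 genes called. Without E8.5 wild type replicate 2 they were 1.45 for Fga (limma adjusted p = 0.0450), 1.51 for Fgb (limma adjusted p = 0.0658) and 1.56 for Fgg (limma adjusted p = 0.0345), and 2 genes were called, as were 1942 of all probe sets.

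The same array stood apart in marker lists. The mean log2 level of the 16 trophoblast and placenta markers was 5.08 and 4.97 on the knockout arrays, against 7.96 on E8.5 wild type replicate 1, and that of wild type replicate 2 lay between the knockout arrays. Tpbpa, a gene of the spongiotrophoblast layer, read 4.24 and 4.21 in knockout, against 9.52 on that array and 4.15 on the other wild-type array. The 23 visceral endoderm markers averaged 9.93 and 10.30 in knockout, against 9.46 on wild type replicate 1 and 10.09 on replicate 2. Of the 23, 20 were higher in knockout with a median of 0.25, beside 47.7% of all genes that were higher. Without wild type replicate 1, 10 of the 23 were higher and the median was -0.08. The 16 red cell markers averaged 6.71 and 6.69 in knockout, against 6.76 on wild type replicate 1 and 8.20 on replicate 2. The part of these cells in the fibrinogen difference was not tested.

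**Figure D4:**
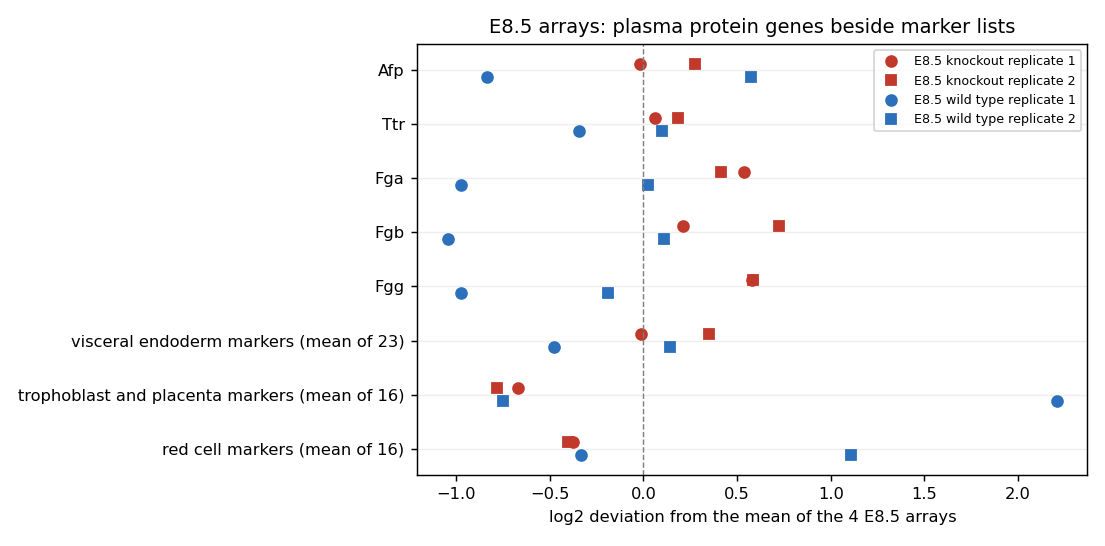
Deviation of each E8.5 array from the mean of the 4 E8.5 arrays, in log2, for 5 plasma protein genes and for the mean of 3 marker lists. Red is knockout and blue wild type, circles are replicate 1 and squares replicate 2. Wild type replicate 1 lies at -0.34 to -1.05 in the 5 genes, at -0.48 in visceral endoderm markers and at 2.21 in trophoblast markers, and wild type replicate 2 lies at 1.11 in red cell markers.

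At E8.5 none of the listed genes was called between the genotypes. Among other plasma proteins Serping1, the C1 inhibitor, was the only one past an absolute t of 3, with 4.76 and 5.23 in knockout against 6.33 and 5.65 in wild type (-0.99, limma adjusted p = 0.990), and the list's median was 0.02. Slc2a2 alone passed that threshold among visceral endoderm markers, with 11.01 and 10.77 in knockout against 10.01 and 9.53 in wild type (1.12, limma adjusted p = 0.990). The medians of the remaining lists at E8.5 were 0.03 for hepatoblast markers, 0.09 for the transcription factors, -1.12 for trophoblast, 0.24 for decidua, -0.39 for red cell and -0.04 for macrophage markers.

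Whether the knockout difference itself changed with the stage was tested as the E12 difference minus the E8.5 difference, which is also the stage difference in knockout minus that in wild type. None of the 8 genes was called and 0 passed an absolute t of 3. Among all probe sets 0.00444% were called (2 probe sets) and 0.688% passed that t, with 842 (1.87%) at an unadjusted limma p below 0.05. The values were -1.11 for Fga (SE 0.51), -0.92 for Fgg (SE 0.45), -0.76 for Fgb (SE 0.60) and 0.72 for Alb (SE 0.39), each with a limma adjusted p of 1.00. The fibrinogen difference at E8.5 was therefore not shown to differ from that at E12, nor were the stage differences shown to differ between genotypes.

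The patterns of the genes over the 8 arrays were set side by side by the root mean square difference of log2 values after centring each gene on its own mean, where 0 is the same pattern. Within the list the closest were Fga and Fgb (0.29), Afp and Fgb (0.36), Fgb and Fgg (0.37), Alb and Serpina6 (0.41), Afp and Fga (0.43) and Fga and Fgg (0.48). The neighbours Alb and Afp were among the least alike, at 3.91. Alb was about as far from Fga (4.01), Fgb (3.93) and Fgg (3.61), and farther from Ttr (5.35), so this distance was not particular to the neighbours. All points share the arrays and their scaling, so these are descriptions over 8 arrays.

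Among all 18193 genes, the closest to Alb were Zic1 (0.37), Serpina6 (0.41) and Nefm (0.64), where the median gene was at 3.08. Those closest to Serpina6 were Bcl11b (0.37), Alb (0.41) and Nefm (0.44), with the median gene at 2.75. The closest to Ttr was Rbp4 (0.26), followed by Gldc and Stx3 (0.31 each), with the median gene at 2.33. Those closest to Afp were Rbmxl1 (0.14), Slc22a23 and Ttll4 (0.15 each), with the median at 0.97. Zic1 and Nefm are genes of the nervous system and Bcl11b is one of T cells and neurons.

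For the fibrinogens the closest were Pla1a (0.23), Lrp11 and Cfc1 (0.25 each) to Fga, Hykk (0.11), Tmem88 (0.20) and Cd55 (0.25) to Fgb, and Tspan2 (0.25), Wls (0.26) and Pgr (0.27) to Fgg. Ahsg was closest to Plxnb3 (0.055), Asb18 (0.086) and Paqr8 (0.090). The median gene was at 1.06 from Fga, 1.02 from Fgb, 0.80 from Fgg and 0.58 from Ahsg.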

How the data were processed

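Gene expression was measured on Affymetrix whole-genome mouse arrays, 2 per group, after Trizol extraction and amplification of the RNA. The authors normalized and summarized the probe sets with Robust Multi-array Analysis and deposited the resulting intensities unlogged. Joint normalization of all 8 arrays is neither stated nor excluded in the sources used here. Deposited intensities were converted to log2 without an added constant. Leaving out 64 controls, 45037 of 45101 probe sets were tested. The platform annotation named 1 gene for 34945 of them, several for 932 and none for 9160, with symbols updated through RefSeq (GRCm38.p6). The brightest probe set on average stood for a gene with several.

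A single linear model with a mean for each group was fitted to the 8 arrays by lmFit and eBayes of limma 3.58.1 (R 4.3.3), leaving 4 residual degrees of freedom beside 2.54 prior ones. Calls were made where the p-value adjusted across all probe sets by the Benjamini-Hochberg method was below 0.05, or at an absolute moderated t above 3 as in the study's methods. The fit was tested on simulated data. The pooled spread is applied to every group, although replicates agreed least in E8.5 wild type. With 2 arrays per group their number limits the precision.

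The genes, the marker lists (other plasma proteins, visceral endoderm, hepatoblasts and hepatocytes, endoderm and liver transcription factors, trophoblast and placenta, maternal decidua, red cells, macrophages) and the rules were chosen with earlier results of these data known. From each list and comparison, up to 4 genes past an absolute t of 3 with the highest absolute t were eligible to be named, or else the first 2, and for each plasma protein gene the 3 genes with the closest pattern. Cubn, Tpbpa, Cps1, Cebpa, Dlk1 and Hnf4a are given as defining markers. Alternatives were quantile normalization, a filter on dim probe sets, the mean of all probe sets of a gene, a fit per stage, a replicate block, the second threshold and leaving out each array.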

Additional observations from a re-analysis of the deposited data

How the results depend on the processing

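The counts of called genes between stages moved with the scaling: quantile normalization gave 4 in knockout, against 7, and 3 in wild type, against 5. Over all probe sets it gave 7935 in knockout, against 11539, and 9167 in wild type, against 12525. Which genes were called between stages depended on the array left out, as did the number called over all probe sets. In the knockout comparison at E8.5 the t threshold called 1 gene, and 2.06% of all probe sets. Afp and Fgg in wild type turned to 0.075 and 0.11 with quantile normalization. For the knockout comparison at E12, leaving out 1 array gave -0.43 to 0.11 for Afp, -0.37 to 0.064 for Ahsg, -0.49 to 0.18 for Fga, -0.14 to 0.48 for Fgb, -0.083 to 0.57 for Fgg, -0.42 to 0.37 for Serpina6 and -0.18 to 0.75 for Ttr. At E8.5 it gave -0.45 to 0.97 for Afp, -0.19 to 0.28 for Ahsg and -0.21 to 0.041 for Alb. The causes were not tested. Where 1 array was left out of a group, the remaining array was taken to vary like the other groups. Of the values computed for single genes under the alternatives, 400 kept direction and side of the threshold, 34 lost the call, 11 gained it and 15 changed sign. Many of them could not change direction. The replicate block, the filter and leaving out an array outside a comparison return the same difference. The tally is therefore no measure of robustness.

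Whether the replicate numbers pair the arrays was not settled. Deviations of same-numbered arrays correlated positively between knockout and wild type of the same stage, more for the E8.5 groups (0.37) than for the E12 groups (0.17). Between groups of different stages the correlations ran from -0.12 to 0.076. With the replicate block 7 genes were called between stages in knockout and 6 in wild type, and 0 in each knockout comparison and in the difference between stages. Over all probe sets this block called 11265 between stages in knockout and 12300 in wild type. In wild type it lost Fga (limma adjusted p = 0.0642) and added Afp (limma adjusted p = 0.0242) and Fgb (limma adjusted p = 0.0442), and the filter on dim probe sets called Fga and Fgb both. A block within each stage, added after seeing the data, gave 0 at E12 and 0 at E8.5. Over all probe sets it called 0 at E12 (lowest limma adjusted p = 0.0502), so the macrophage genes Ctss and Lyz1 were then not called. A crossed block for the stage comparison in knockout gave 8, and 11105 over all probe sets. Over all probe sets the first block gave 2 calls in the E12 knockout comparison, against 6. The filter on dim probe sets left out Ahsg. Ahsg at both stages, and Alb and Serpina6 at E8.5, were dim, and no detection calls were used.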

Other observations

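Tdo2, tryptophan dioxygenase, a liver enzyme that was in the hepatoblast list, read 7.22 and 7.34 in E8.5 knockout against 5.35 and 5.73 in E8.5 wild type, a difference of 1.74 (SE 0.18, limma adjusted p = 0.843). Prox1 read 4.98 and 4.87 in E8.5 knockout against 4.25 and 3.61 in E8.5 wild type, a difference of 1.00 (SE 0.24, limma adjusted p = 0.984). These were the only hepatoblast markers past an absolute t of 3 at E8.5, in which 2.06% of all probe sets passed, and neither was called.

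Hrg, the histidine-rich glycoprotein of plasma, read 7.97 and 7.73 in knockout and 7.70 and 7.54 in wild type at E12, against 6.17 and 5.92 in knockout and 6.09 and 5.45 in wild type at E8.5. F10, coagulation factor X, read 6.30 and 7.05 in E12 knockout against 7.57 and 7.19 in E12 wild type, a difference of -0.70 (SE 0.31, limma adjusted p = 1.00). Hp, haptoglobin, read 4.42 and 4.68 in E12 knockout against 5.31 and 4.78 in E12 wild type, a difference of -0.49 (SE 0.23, limma adjusted p = 1.00).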
